A study of Mus musculus with 24 samples.

Results

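The miR-181 family was followed in EEFs, exosome-enriched fractions prepared from mouse hippocampus, in which small RNAs had been sequenced. The family is followed through 7 mature names, taken by name from 1073 with reads: mmu-mir-181a-5p, mmu-mir-181b-5p, mmu-mir-181c-5p, mmu-mir-181d-5p, mmu-mir-181a-1-3p, mmu-mir-181a-2-3p and mmu-mir-181c-3p. Other names of the same hairpins had few reads, with 39 reads of mmu-mir-181b-1-3p, 2 of mmu-mir-181b-2-3p and 1 of mmu-mir-181d-3p over all libraries. The mice were male C57BL/6 (C57BL/6OlaHsd in the methods) of 6 to 9 weeks, implanted with electrodes and a guide cannula. They received 0.3 µg kainic acid (KA) in 0.2 µl, which sets off status epilepticus, or PBS (control) into the basolateral amygdala, and the protocol gives 8 mg/kg midazolam to end seizures. Hippocampi were taken at 24 h or 2 weeks. EEFs were made by ultracentrifugation (UC, 5 hippocampi pooled per library) or by a precipitation kit (4 pooled), and were treated with RNase before RNA was extracted. Each combination of method, treatment and time had 3 libraries, 24 in all.

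In a miRNA hairpin the strand cut from the 5′ side and the strand cut from the 3′ side are named 5p and 3p. The strand loaded into an Argonaute protein, the guide, silences mRNAs that pair with its seed, the bases near its 5′ end. In the miR-181 family the 5p strands are the usual guides. They are abundant in brain and in developing lymphocytes, and have been studied as regulators of neuronal survival after ischaemia and of astrocyte and microglial inflammation. The family comes from 6 hairpins in 3 pairs, and miR-181a-5p and miR-181b-5p can each be cut from 2 of them.

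The mature sequences are shown because the 5p strands share their seed and differ only in the middle and at the 3′ end, where most read ends described later also differ. Capitals mark the seed, bases 2 to 8 from the 5′ end (RefSeq, GRCm38.p6, where all 7 names matched).
mmu-mir-181a-5p: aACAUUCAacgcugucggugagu
mmu-mir-181b-5p: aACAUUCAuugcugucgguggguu
mmu-mir-181c-5p: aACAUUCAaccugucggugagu
mmu-mir-181d-5p: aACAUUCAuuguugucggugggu
mmu-mir-181a-1-3p: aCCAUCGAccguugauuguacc
mmu-mir-181a-2-3p: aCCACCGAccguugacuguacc
mmu-mir-181c-3p: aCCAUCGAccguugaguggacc

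All 4 of the 5p strands carried the seed ACAUUCA, and no other mouse mature sequence in the same reference table did. miR-181a-1-3p and miR-181c-3p shared the seed CCAUCGA, from which miR-181a-2-3p differed by U5C. Counting from the 5′ end of miR-181a-5p, miR-181b-5p differed by A9U, C10U and A21G and was 1 base longer, and miR-181d-5p by A9U, C10U, C12U and A21G. miR-181c-5p lacked G11 and had no substitution. Near the 3′ end the strands therefore formed 2 kinds, gugagu in miR-181a-5p and miR-181c-5p and guggg in miR-181b-5p and miR-181d-5p.

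On GRCm38 (GENCODE M21) Mir181a-1 lies at chr1:137966455-137966541 and Mir181b-1 at chr1:137966639-137966718, 97 bases apart on the plus strand, in an exon of the lincRNA A430106G13Rik and in an intron of Gm4258. Mir181a-2 lies at chr2:38852735-38852810 and Mir181b-2 at chr2:38853830-38853918, 1019 bases apart on the plus strand and antisense to introns of Nr6a1. Mir181c at chr8:84178873-84178961 and Mir181d at chr8:84178716-84178787 lie 85 bases apart on the minus strand, in an intron of Nanos3 on the same strand. The 5p strands of miR-181a and of miR-181b are identical between their chromosome 1 and chromosome 2 hairpins, so their reads cannot be assigned to a locus.

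The family was 1 of the largest sources of reads in these EEFs. Together the 7 members held 1040904 of 5371420 reads (19.4%). The share of a library was 18.1 to 27.0% (median 19.9%) in the 12 UC libraries, which had 85436 to 169639 reads, and 14.4 to 23.6% (median 19.3%) in the 12 kit libraries, which had 154884 to 676726. In counts scaled to library size (CPM), 1 read stood for 5.89 to 11.7 in a UC library and for 1.48 to 6.46 in a kit library. In every group the replicates were further apart than counting noise alone gives. The library of the UC KA 2 week group numbered 3 stood apart, with the lowest mean correlation with the other UC libraries (r = 0.935, against 0.947 to 0.961 for the rest) and the lowest TMM factor (0.821). Values that rest on it are given with and without it.

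The 5p strands made up 99.4% of the members' reads, and miR-181a-5p alone 87.3%. miR-181a-5p was the first or second most frequent miRNA of every library, at 15.4 to 23.2% of UC reads (median 17.3%) and 12.5 to 21.0% of kit reads (median 16.8%). miR-181b-5p, which shares 2 hairpin clusters with it, followed at 1.61 to 2.84% of UC reads and 0.959 to 1.61% of kit reads. miR-181c-5p was at 0.398 to 0.794% and 0.584 to 0.939%. miR-181d-5p, cut from the hairpin next to that of miR-181c, was the least frequent guide strand at 0.136 to 0.280% and 0.0934 to 0.221%. This order of the 4 strands held in every library, because the ranges of neighbouring members did not overlap within either method. The number of miR-181a-5p reads per miR-181b-5p read was 8.18 to 15.2 (median 11.0), that of miR-181b-5p per miR-181d-5p read 6.22 to 16.2 (median 10.8) and that of miR-181c-5p per miR-181d-5p read 1.42 to 7.70 (median 4.36). Reads of different sequences are captured with different efficiency in small RNA libraries, so these are ratios of reads and not of molecules.

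The 3p strands were rare. In UC libraries miR-181a-1-3p was at 0.0572 to 0.161% of reads, and in kit libraries at 0.0457 to 0.0789%. miR-181c-3p was at 0.0249 to 0.0657% and 0.0223 to 0.0748%. miR-181a-2-3p had 0 to 8 reads in a UC library and 4 to 42 in a kit library. It had no read in the UC KA 24 h library numbered 3, where 0 of 158 reads of the 3p members allow a share of up to 1.90% by the floor of 3 reads (exact 95% binomial upper limit 2.31%). Such limits, and intervals below, cover counting error only.

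**Figure D1:**
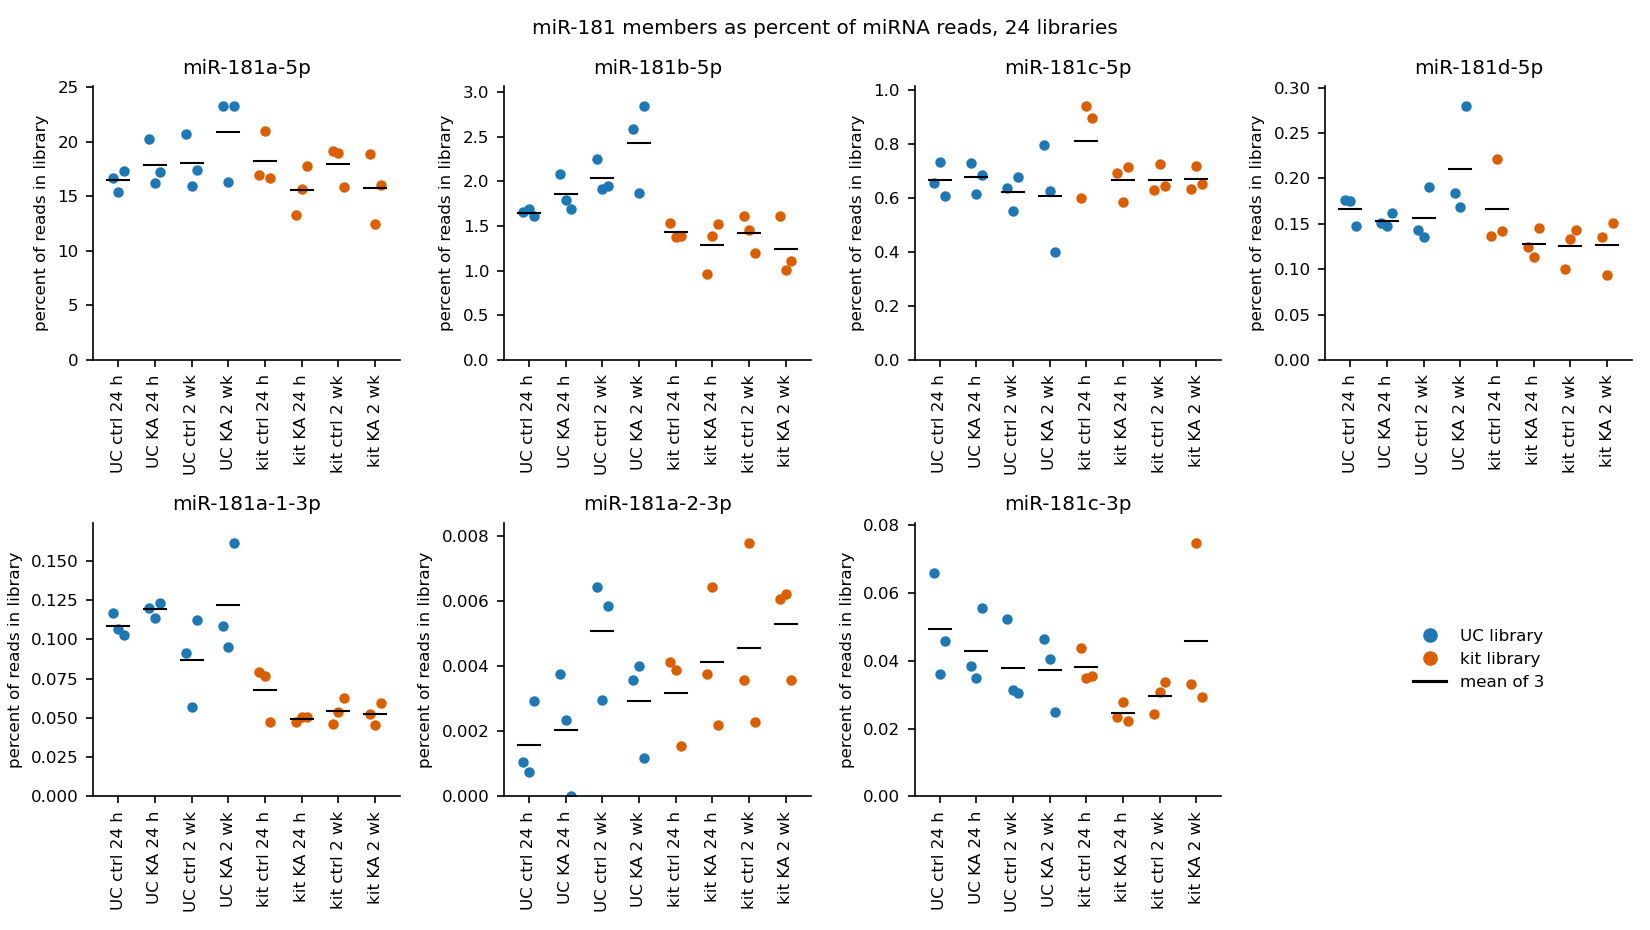
Each panel plots 1 member as a percentage of the miRNA reads of a library (linear axis from 0), with 3 points for the libraries of each of the 8 groups (blue UC, orange kit) and a bar at their mean. miR-181a-5p sits between 12.5 and 23.2% everywhere, and the kit libraries of miR-181a-1-3p lie between 0.0457 and 0.0789%, mostly under the UC libraries.

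Across libraries the members did not all vary together. After centring log2 CPM within each method, miR-181b-5p was the miRNA whose level followed that of miR-181a-5p most closely of 396 (Pearson r = 0.904 over 24 libraries). The next were miR-151-5p (r = 0.797), miR-191-5p (r = 0.723) and miR-330-3p (r = 0.615), then miR-181d-5p (r = 0.589). miR-181a-1-3p, from a hairpin that also gives miR-181a-5p, came to r = 0.453 and miR-181c-5p to r = -0.02. Without the UC KA 2 week library numbered 3 (an alternative added after the values were seen) miR-181b-5p was still first (r = 0.856) and miR-151-5p second (r = 0.707), while miR-181d-5p fell to r = 0.314 and miR-181a-1-3p to r = 0.146, and miR-181c-5p moved to r = 0.33. There miR-191-5p ranked 8 (r = 0.545) and miR-330-3p ranked 13 (r = 0.472). For miR-181c-5p the closest miRNA was miR-127-5p (r = 0.646), with miR-671-5p (r = 0.569) and miR-187-3p (r = 0.558) after it. Without that library miR-127-5p ranked 2 of 396 (r = 0.547), miR-187-3p ranked 6 (r = 0.461) and miR-671-5p ranked 16 (r = 0.393). Its own 3p strand came to r = 0.312 with that library and r = 0.247 without it. Its cluster neighbour miR-181d-5p came to r = -0.06 with that library and r = 0.445 without it. These correlations are descriptions. The points share library depth and scaling, and miR-181a-5p is itself a large part of every total.

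The 2 preparation methods were compared over all 24 libraries with edgeR's quasi-likelihood test, with treatment and time in the model and Benjamini-Hochberg adjustment over 397 miRNAs. This asks which family members are read at different levels in the 2 sets of libraries. The sets also differed in hippocampi pooled and in depth, so the method cannot be told apart from the library set. That holds for every comparison of kit with UC below. 3 of the 7 members passed an adjusted p of 0.05, all 3 lower with the kit. Of all miRNAs tested 66.2% passed, 33.2% higher and 33% lower with the kit, and the median log2 change was -0.33 for members and -0.02 for all.

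miR-181a-1-3p differed most. Its level was 1117 ± 315 CPM with UC (SD, n = 12, range 653 to 1990, median 1103) and 549 ± 94.9 CPM with the kit (n = 12, 440.2 to 746, median 543). The kit was 0.496-fold of UC (log2 fold change -1.01, SE 0.15, adjusted p = 3.75e-07). The ranges overlapped between 653 and 746 CPM. miR-181b-5p was at 20436 ± 5241 CPM with UC (range 16447 to 34991, median 18313) and 13340 ± 2641 CPM with the kit (8955 to 17048, median 13675), 0.662-fold (log2 -0.60, SE 0.13, adjusted p = 0.000194). miR-181d-5p was at 1768 ± 545 CPM (1394 to 3446, median 1662) and 1338 ± 274 CPM (980 to 2014, median 1311), 0.765-fold (log2 -0.39, SE 0.15, adjusted p = 0.0193). The call for miR-181d-5p was lost without the kit control 24 h library numbered 1 (log2 -0.33, adjusted p = 0.0512) and with no filter on low counts (log2 -0.32, adjusted p = 0.104).

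The other 4 members did not pass. miR-181a-5p was at 187456 ± 37409 CPM in UC and 166690 ± 27050 CPM in kit libraries (log2 -0.16, SE 0.11, adjusted p = 0.203). miR-181c-5p was at 6481 ± 708 and 6923 ± 1046 CPM (log2 0.09, SE 0.11, adjusted p = 0.478). miR-181a-2-3p, on a few reads per library, had a log2 change of 0.61 (SE 0.32, adjusted p = 0.0906). miR-181c-3p was at 424 ± 113 and 343 ± 156 CPM (log2 -0.33, SE 0.19, adjusted p = 0.115). The result for miR-181c-3p rested on the kit KA 2 week library numbered 2, without which it was past the threshold (log2 -0.54, adjusted p = 0.0039). It also passed without the UC control 24 h library numbered 2 (adjusted p = 0.0404), the UC control 2 week library numbered 3 (adjusted p = 0.0407) or the UC KA 2 week library numbered 3 (adjusted p = 0.0213).

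**Figure D2:**
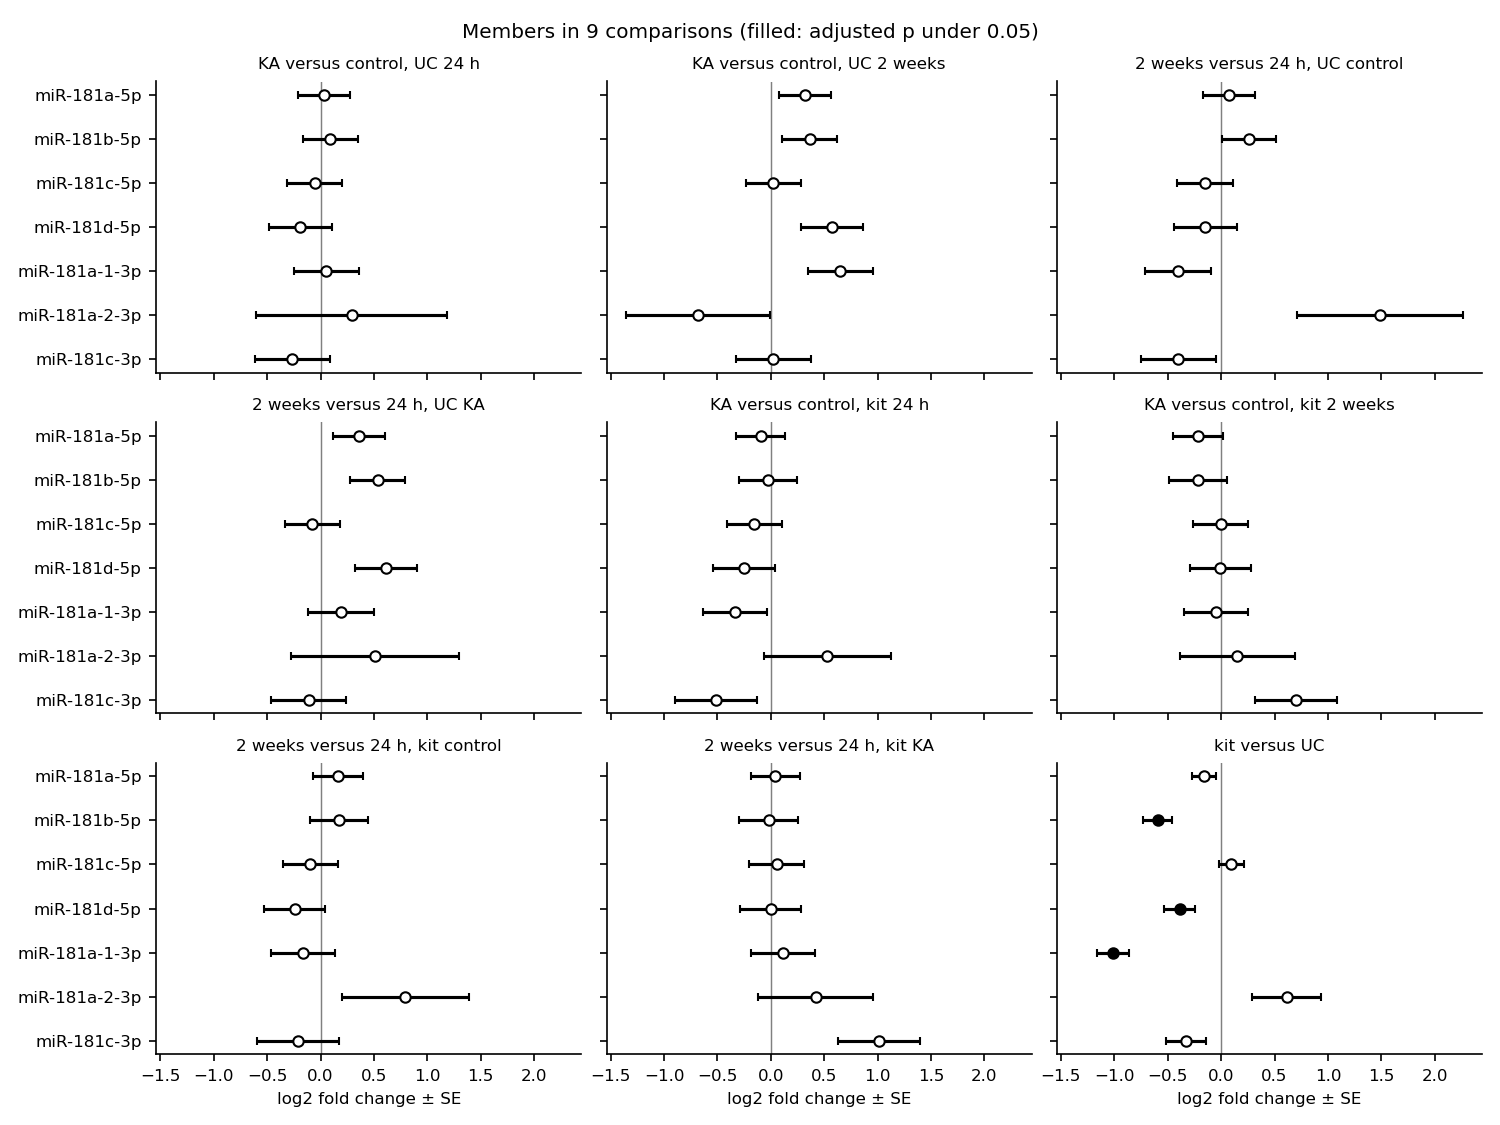
Each panel is 1 comparison, with the log2 fold change of the 7 members (first condition over second, linear axis) as points, 1 SE as bars, and filled points where the adjusted p is under 0.05. The only filled points are miR-181b-5p (-0.60), miR-181d-5p (-0.39) and miR-181a-1-3p (-1.01) in the comparison of kit with UC.

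The methods also differed in other miRNAs that mark cell types. Their sums are given as CPM by library size alone, without the TMM scaling used for the members. The summed level of 3 oligodendrocyte miRNAs ran from 6137 to 10956 CPM in UC libraries and from 1760 to 2255 CPM in kit libraries. That of 2 endothelial miRNAs was at most 609 CPM in UC libraries and at least 2101 CPM in kit libraries. 4 neuronal miRNAs summed to 13321 to 24821 and 14496 to 36705 CPM, and 3 miRNAs of red blood cells to 0 to 11.3 and 0 to 184 CPM. The part of these in the members' differences was not tested, and fewer EEFs from a cell type cannot be told apart from fewer copies per EEF.

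Shares within the family do not depend on the scaling of libraries. Of the reads of the 5p members, miR-181b-5p took 9.40 ± 0.726% with UC (n = 12, range 8.15 to 10.6%) and 7.06 ± 0.674% with the kit (n = 12, 5.87 to 7.94%). The ranges of the 2 methods did not overlap. The difference of -2.33 percentage points had p = 1.25e-05 in a 2-sided exact permutation test within the 4 strata of treatment and time, the smallest p the test can give, and an adjusted p of 0.00125 over 200 such tests. In the 4 strata the difference was -1.68 (control 24 h), -1.77 (KA 24 h), -2.80 (control 2 weeks) and -3.09 points (KA 2 weeks). The share of miR-181a-5p moved the other way, from 86.7 ± 0.716% with UC to 88.5 ± 0.714% with the kit (adjusted p = 0.0025, exact permutation). Shares within an arm add up to the whole, so a lower share of miR-181b-5p forces a higher share elsewhere. The rise of miR-181a-5p is therefore no separate result, and its level was not higher with the kit (log2 -0.16, adjusted p = 0.203, edgeR). The shares of miR-181c-5p (3.10 ± 0.612% and 3.74 ± 0.700%, adjusted p = 0.244, exact permutation) and miR-181d-5p (0.816 ± 0.139% and 0.717 ± 0.126%, adjusted p = 0.441, exact permutation) did not pass.

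The balance of the arms differed too. For miR-181a the 3p reads of both hairpins were summed and set over the 5p reads, on a log2 scale with 0.5 added to each count. This ratio was -7.37 ± 0.30 with UC (n = 12, range -8.04 to -7.12) and -8.13 ± 0.26 with the kit (n = 12, -8.59 to -7.67), a difference of -0.77 (exact permutation p = 2.5e-05, adjusted p = 0.00167). Per 3p read there were at most 265 reads of miR-181a-5p in a UC library, and a median of 267 in the kit libraries. The difference was between -0.97 and -0.61 in each stratum. For miR-181c the log2 ratio was -3.96 ± 0.34 with UC and -4.41 ± 0.49 with the kit (difference -0.45, exact permutation p = 0.0178, adjusted p = 0.222), and within strata it ran from -0.77 (KA 24 h) to 0.01 (KA 2 weeks). miR-181c thus kept 1 3p read for 9.98 to 22.2 reads of its 5p strand with UC and for 9.62 to 32.1 with the kit.

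Among reads of the 3p members, miR-181a-1-3p took 70.5 ± 7.00% with UC and 59.8 ± 8.25% with the kit (n = 12 each, adjusted p = 0.00944, exact permutation). miR-181a-2-3p took 2.00 ± 1.40% and 4.58 ± 2.08% (adjusted p = 0.0123, exact permutation), on 45 reads in all UC libraries and 180 in all kit libraries. miR-181c-3p took 27.5 ± 6.62% and 35.7 ± 8.04% (adjusted p = 0.0695, exact permutation). These shares are bound to each other as well. The level of miR-181c-3p was not higher with the kit (log2 -0.33, adjusted p = 0.115, edgeR). The log2 ratio of miR-181a-1-3p to miR-181a-2-3p, the only reads that separate the 2 miR-181a hairpins, was 5.32 ± 1.25 with UC and 3.76 ± 0.72 with the kit (adjusted p = 0.00857, exact permutation).

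**Figure D3:**
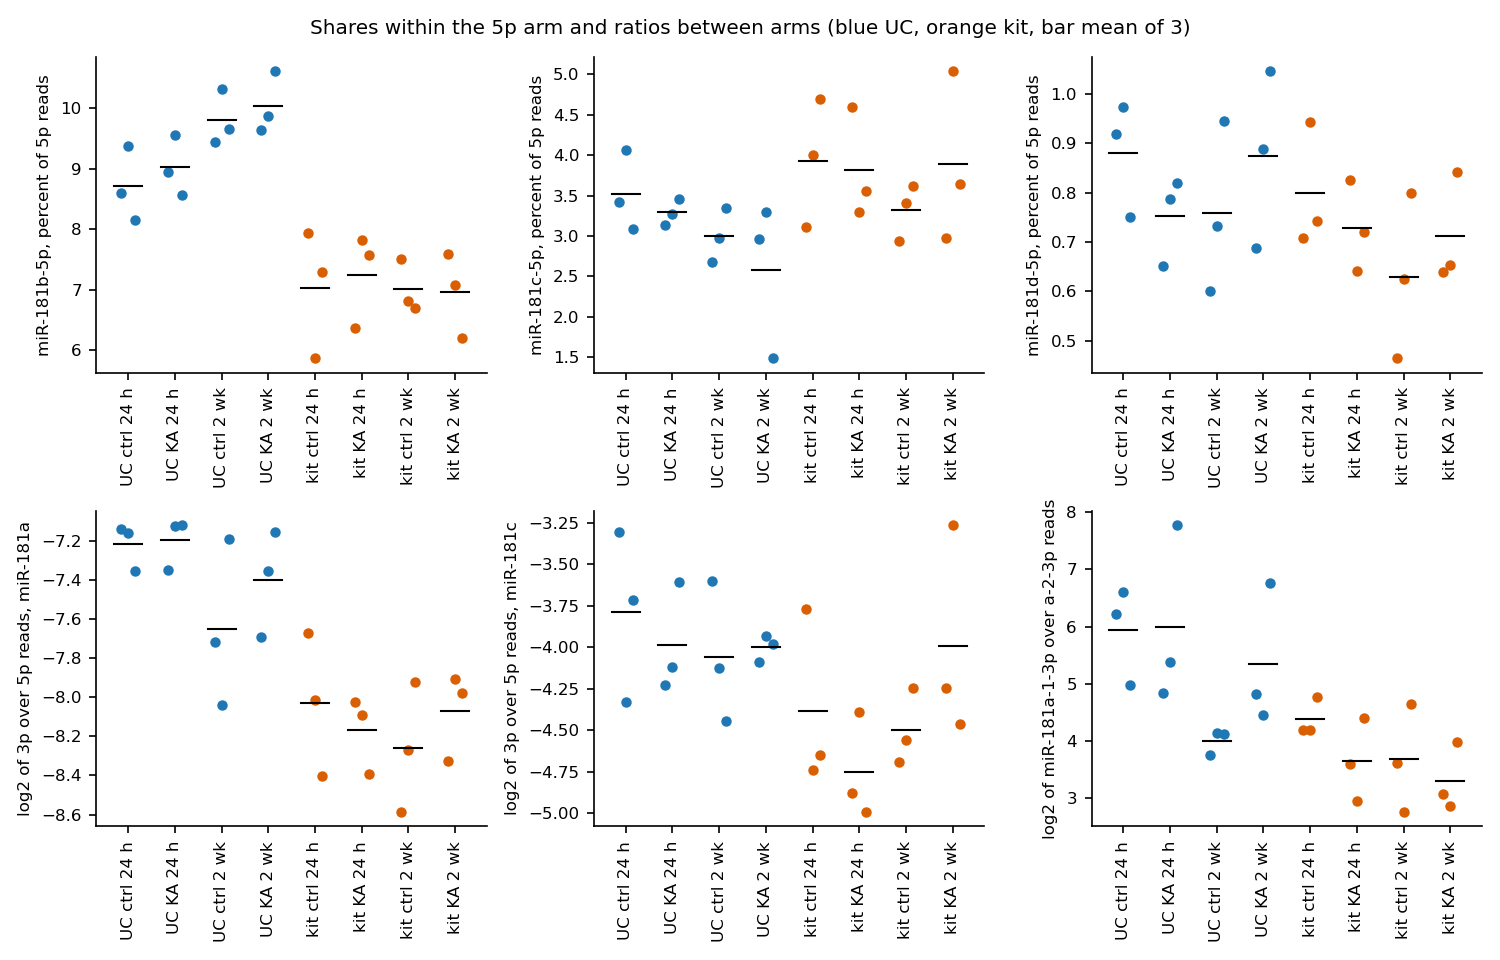
The top panels plot the percentage of 5p reads taken by miR-181b-5p, miR-181c-5p and miR-181d-5p, and the bottom panels log2 ratios of read counts, with 3 libraries per group as points and their mean as a bar (axes do not start at 0). For miR-181b-5p every UC library (8.15 to 10.6%) lies above every kit library (5.87 to 7.94%), and 1 UC KA 2 week library has 1.49% of miR-181c-5p.

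KA and control were compared within each method and time with edgeR's test (420 miRNAs with UC, 520 with the kit). No member passed an adjusted p in any of these comparisons. At 24 h with UC 0 of 7 members passed the adjusted p (0.476% of all miRNAs did) and 0 the unadjusted p (2.86%). At 2 weeks with UC these were 0 (0.952%) and 1 (7.86%). With the kit they were 0 (0%) and 0 (4.62%) at 24 h, and 0 (0%) and 0 (2.69%) at 2 weeks. The members' median log2 changes were 0.04 and 0.32 with UC at 24 h and 2 weeks, against 0.06 and 0.02 over all miRNAs, and -0.16 and -0.01 with the kit, against 0.09 and -0.01. The SE of a member's log2 change was 0.23 to 0.90.

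CPM of members are given here as scaled by TMM within each method, and sums of leukocyte miRNAs as CPM by library size alone. At 24 h with UC miR-181a-5p was at 161566, 152480 and 189927 CPM in controls and 188873, 157220 and 170383 CPM after KA (log2 0.04, SE 0.25). The values overlapped. With the kit it was at 163640, 192137 and 149281 CPM in controls and 130887, 158883 and 182565 CPM after KA, again with overlap.

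At 2 weeks with UC the controls had 199742, 179450 and 151693 CPM of miR-181a-5p and the KA libraries 218433, 161662 and 283096 CPM (log2 0.32, SE 0.25, adjusted p = 0.724). The highest value was that of the library numbered 3, whose TMM factor was 0.821. As a percentage of reads miR-181a-5p was at 23.2% there. It was also at 23.2% in the KA library numbered 1, whose TMM factor was 1.06, so the gap between these CPM values rests on the scaling. miR-181a-1-3p gave the lowest p of the members here. It was at 882, 644 and 981 CPM in controls and 1022, 945 and 1967 CPM after KA (log2 0.65, SE 0.31, unadjusted p = 0.0397, adjusted p = 0.577). Without the KA library numbered 3 the log2 change was 0.22 for miR-181a-1-3p, 0.13 for miR-181d-5p, 0.06 for miR-181b-5p, 0.07 for miR-181a-5p and 0.14 for miR-181c-5p. In that library miR-181d-5p was at 3407 CPM, against 1377 to 1734 CPM in the other UC libraries, and miR-181c-5p at 4846 CPM, the lowest of the UC libraries. Its miR-181c-5p share of 5p reads was 1.49% (95% exact binomial interval 1.38 to 1.60%), against 2.68 to 4.07% in the other UC libraries. In the UC KA 2 week group 6 leukocyte miRNAs summed to 4349 to 5397 CPM, against 2075 to 2762 CPM in its controls; their part in the members' values was not tested.

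At 2 weeks with the kit miR-181c-3p was at 260, 351 and 307 CPM in controls and 342, 868 and 271 CPM after KA (log2 0.70, SE 0.38, unadjusted p = 0.0796, adjusted p = 0.998). The value of 868 CPM, from 506 reads, was in the KA library numbered 2, where miR-181c-3p was 59.0% of the 3p reads (95% exact binomial interval 55.7 to 62.4%) and miR-181c-5p 5.04% of the 5p reads, each the highest of all libraries. Without it the log2 change was 0.09. Here too the sum of the 6 leukocyte miRNAs, miR-146a-5p among them, was higher in some KA libraries. It was 1518 to 7628 CPM against 684 to 1733 CPM in controls, and its part was not tested.

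At 2 weeks libraries with the same replicate number deviated together, so both 2 week comparisons were also fitted on their own 6 libraries with the replicate number as a block (added after the data were seen). No member passed adjustment. With UC the count of members at an unadjusted p under 0.05 went from 1 to 0 and of all miRNAs past adjustment from 4 to 0. With the kit these went from 0 to 1, miR-181c-3p (log2 0.54, SE 0.27, adjusted p = 0.683), and from 0 to 4.

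Shares, arm ratios and read ends were tested between KA and control with exact permutation within the 2 times, which cannot give less than p = 0.005. In the tests by time, which have the same limit, that p became an adjusted p of 0.0695 (exact permutation). A single KA value at the smallest p would thus fall short as well, so the lack of a pass cannot decide whether KA changed these values. None of 40 values passed adjustment with UC (1 of 40 had an unadjusted p under 0.05) or with the kit (2 of 40), and the lowest adjusted p was 0.304. The smallest p values here were for read ends. With the kit changed 3′ ends of miR-181b-5p were in 22.0 ± 2.45% of reads in controls and 27.3 ± 4.20% after KA (SD, n = 6 each, exact permutation p = 0.035, adjusted p = 0.304). With UC those of miR-181d-5p were in 34.5 ± 3.07% and 28.6 ± 4.56% (n = 6 each, exact permutation p = 0.035, adjusted p = 0.304). In the other method each difference had the opposite sign. KA minus control was -1.24 points for miR-181b-5p with UC and 3.72 points for miR-181d-5p with the kit. At 24 h with the kit the miR-181b-5p values did not overlap, with 18.7 to 22.5% in controls and 26.2 to 28.1% after KA, while at 2 weeks they were 22.2 to 25.3% and 22.2 to 34.6%. The miR-181d-5p values with UC overlapped at both times. The interaction of KA with time, or with method, passed edgeR's adjusted p for no member. The lowest adjusted p was that of miR-181d-5p with UC, where the KA change at 2 weeks was above that at 24 h by 0.76 on the log2 scale (SE 0.41, adjusted p = 0.843), and by 0.36 without the KA 2 week library numbered 3. The lowest unadjusted p was that of miR-181c-3p with the kit, where the same difference was 1.22 (SE 0.54, adjusted p = 0.986), and 0.65 without the KA 2 week library numbered 2. Both values without a library were added after the data were seen.

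The comparison of 2 weeks with 24 h also left all members short of the adjusted threshold. 0 of 7 members passed in UC controls (0% of all miRNAs), UC KA (0.952%), kit controls (0%) and kit KA (0.192%). In UC KA libraries miR-181b-5p went from 19366, 17409 and 16737 CPM at 24 h to 24302, 18563 and 34596 CPM (log2 0.53, SE 0.26, unadjusted p = 0.0431, adjusted p = 0.441), and miR-181d-5p had a log2 change of 0.62 (SE 0.29, adjusted p = 0.432). Without the library numbered 3 these were 0.32 and 0.26. In kit KA libraries miR-181c-3p had a log2 change of 1.01 (SE 0.38, unadjusted p = 0.0152, adjusted p = 0.984), and 0.41 without the library of 506 reads.

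Of the shares and arm ratios, the miR-181b-5p share of 5p reads in UC libraries had the lowest p by time, but did not pass adjustment. It was 8.71 ± 0.624% in controls and 9.02 ± 0.505% after KA at 24 h, and 9.81 ± 0.451% and 10.0 ± 0.507% at 2 weeks (SD, n = 3 each). The difference of 1.06 points had p = 0.005 in the exact permutation test, the smallest it can give, and an adjusted p of 0.0695. With the kit the difference was -0.16 points. No other share or arm ratio was below an adjusted p of 0.3 by time within a method. Among read ends the kit libraries gave 1 equally low p. miR-181d-5p reads ending in changed guanine were 0.0388 ± 0.0949% at 24 h and 0.408 ± 0.329% at 2 weeks (SD, n = 6 each, exact permutation p = 0.005, adjusted p = 0.0695). These percentages rest on only 10 reads over all kit libraries, with at most 3 in a library.

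The deposited tables also list reads whose ends or inner bases differ from the hairpin. Letters past the template at a miRNA's 3′ end are usually added by terminal nucleotidyl transferases, and adenine and uridine are the common ones. Reads that are merely shorter or longer along the hairpin are not listed as changed. Changes are written here as reference letter, base number from the 5′ end and letter read.

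The guide strands fell into the 2 kinds seen in their sequences. Of miR-181b-5p reads 18.7 to 34.6% per library (median 23.4%) had a changed 3′ end, and of miR-181d-5p reads 22.7 to 43.0% (median 32.2%). Of miR-181a-5p reads it was 3.01 to 7.13% (median 4.37%) and of miR-181c-5p reads 2.34 to 4.01% (median 2.98%). Every library of the first pair lay above every library of the second. The changed ends of the first pair were mostly adenine alone, at 14.9 to 27.7% of miR-181b-5p reads (median 18.1%) and 18.7 to 39.6% of miR-181d-5p reads (median 27.1%), against 0.830 to 1.67% of miR-181a-5p reads and 0.851 to 2.10% of miR-181c-5p reads. Both sets of ranges include G21A in the first pair. It has no listed counterpart in miR-181a-5p and miR-181c-5p, whose own letter at the matching base (21 and 20) is A.

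Reads that ended in 1 changed adenine were placed by base. In miR-181b-5p G21A was in 9.58% of all reads (3.05 to 16.6% per library), G22A in 4.99% (2.84 to 6.91%) and U23A in 2.35% (at most 3.22%). In miR-181d-5p G21A was in 9.80% (2.62 to 17.4%), G22A in 14.0% (9.13 to 24.5%) and U23A in 2.08% (0.633 to 3.93%). A read ending in G21A carries at base 21 the letter that miR-181a-5p has there, so an adenine added to a miR-181a-5p read of 20 bases would not be listed and this base cannot be compared. At base 22 the reference letter is G in all of miR-181a-5p, miR-181b-5p and miR-181d-5p. There G22A was in 0.184% of miR-181a-5p reads (0.0856 to 0.374% per library), below the lowest library of either of the others. The corresponding change in miR-181c-5p, which is 1 base shorter, is G21A, in 10 of its 36348 reads. At the last base U23A was in 0.848% of miR-181a-5p reads and U22A in 1.11% of miR-181c-5p reads.

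**Figure D4:**
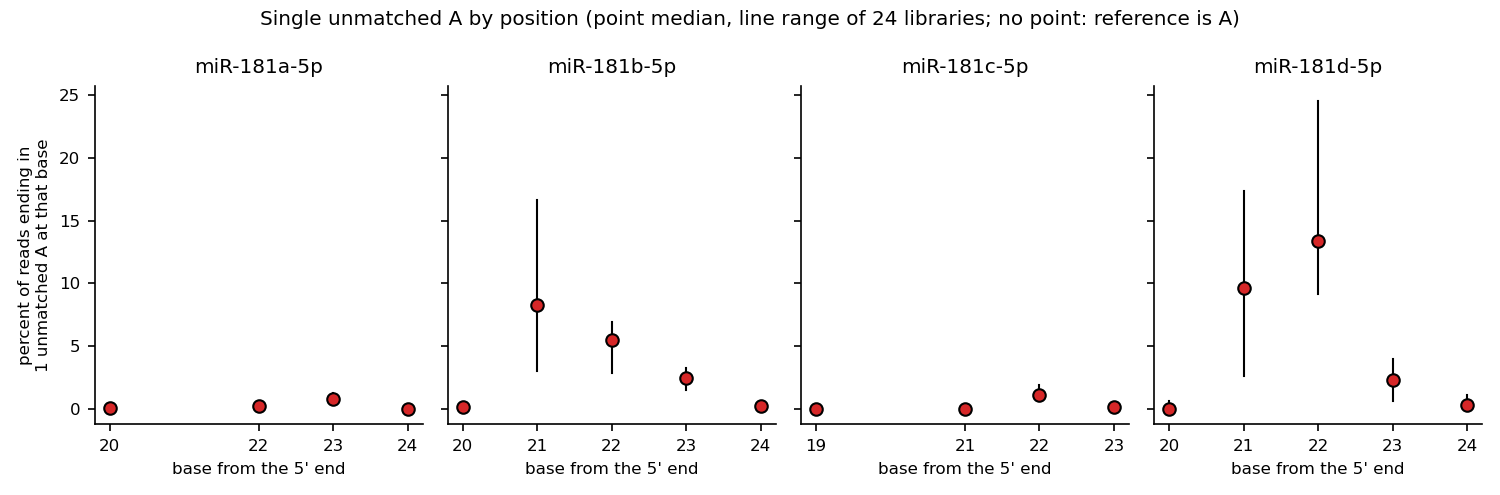
For each 5p member the plot gives the percentage of its reads that end in 1 adenine differing from the reference, by base from the 5′ end (linear axis), as the median (point) and range (line) of 24 libraries. Bases where the reference itself is adenine have no point. miR-181b-5p reaches 16.6% at base 21 and miR-181d-5p 24.5% at base 22, while miR-181a-5p and miR-181c-5p stay under 2% at every base.

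miR-181a-5p had other letters at its end. A21G was in 1.47% of its reads (0.381 to 2.55% per library) and A21U in 1.45% (0.552 to 2.69%). A21G gives a read the letter that miR-181b-5p has at this base, but both strands still differ at bases 9 and 10. In miR-181c-5p the like change A20G was in 0.955% of reads.

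The 3p strands miR-181a-1-3p and miR-181c-3p carried mostly uridine. In miR-181a-1-3p 7.34 to 19.3% of reads per library (median 12.0%) ended in changed or added uridine only, most of it 1 U added after the last base (6.90% of all reads) or C22U (4.89%). In miR-181c-3p it was 7.32 to 32.8% (median 19.1%), and C22U made up 18.6% of all reads. These levels cannot be set against those of the 5p strands, whose last base is itself U. For miR-181a-5p, miR-181c-5p and miR-181d-5p a U added directly after it was listed in 0 reads of all libraries. A single U further past the end was listed. It was 3 bases past the last base in 416 reads of miR-181a-5p and 20 of miR-181c-5p. In miR-181d-5p it was 2 bases past, in 69 reads (0.909%). miR-181a-2-3p had a changed 3′ end in 33 of 225 reads, too few to describe by library.

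**Figure D5:**
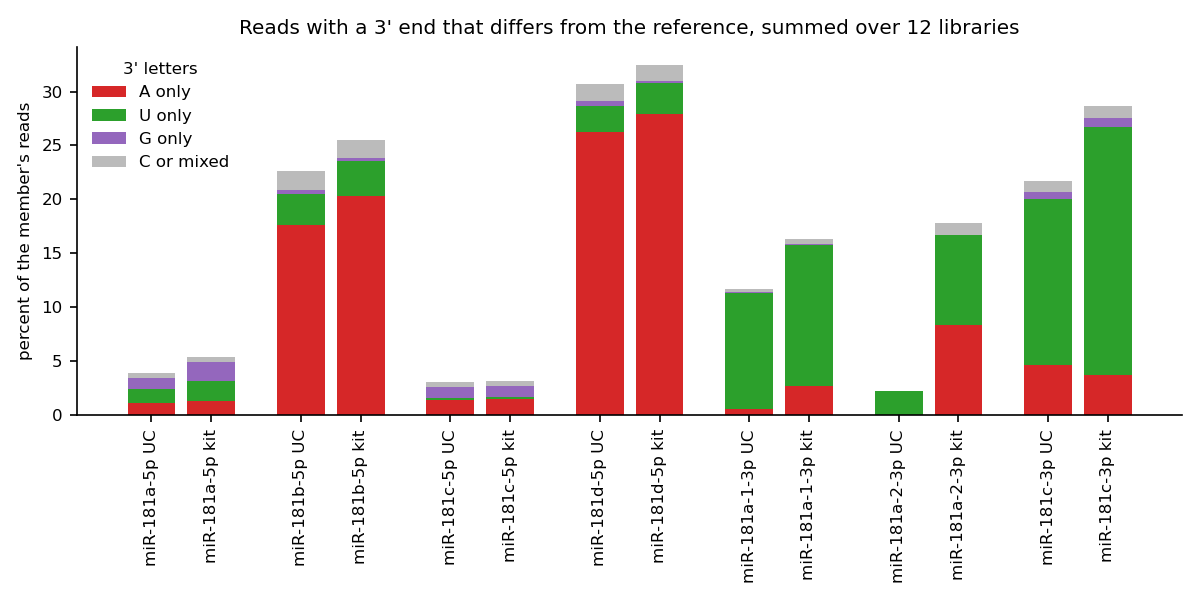
Bars give the percentage of a member's reads whose 3′ end differs from the reference, summed over the 12 libraries of a method and split by letters (adenine only, uridine only, guanine only, cytosine or mixed; axis from 0). Adenine fills most of the bars of miR-181b-5p and miR-181d-5p and uridine those of miR-181a-1-3p and miR-181c-3p. For miR-181a-2-3p adenine and uridine are equal with the kit (8.33% each), and with UC the bar stands for 1 read of 45.

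Between methods the ends of 2 members differed. In miR-181a-5p changed 3′ ends were in 3.79 ± 0.585% of reads with UC and 5.05 ± 0.987% with the kit (n = 12 each, adjusted p = 0.00875, exact permutation), which passed for adenine alone (1.07 ± 0.115% and 1.31 ± 0.194%, adjusted p = 0.0123, exact permutation) and guanine alone (0.913 ± 0.457% and 1.59 ± 0.580%, adjusted p = 0.0331, exact permutation). Its changed 5′ ends went the other way, from 0.392 ± 0.0470% with UC to 0.280 ± 0.0238% with the kit, with no overlap of the 2 ranges (adjusted p = 0.00125, exact permutation). In miR-181a-1-3p changed 3′ ends were in 11.9 ± 2.96% with UC and 16.4 ± 2.47% with the kit (adjusted p = 0.00857, exact permutation) and adenine alone in 0.416 ± 0.447% and 2.37 ± 1.33% (adjusted p = 0.004, exact permutation). The adenine values rest on 8 reads in all UC libraries and 54 in all kit libraries. For miR-181b-5p the share with a changed 3′ end was 23.0 ± 1.99% and 24.6 ± 4.31% (difference 1.64 points, adjusted p = 0.712, exact permutation) and for miR-181d-5p 31.6 ± 4.82% and 31.8 ± 5.77% (difference 0.18 points, adjusted p of 1, exact permutation).

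Inner changes were rare. A-to-G changes at base 8 were in 132 and at base 9 in 122 of 909178 miR-181a-5p reads, the former the last base of the seed. At base 8 they were in 15 reads of miR-181b-5p, 7 of miR-181c-5p and 1 of miR-181d-5p (0.0132 to 0.0193% of each).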

How the data were processed

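Small RNAs of 24 libraries (8 groups of 3) were sequenced. The authors mapped reads with Chimira to miRBase v21, and the deposited tables hold raw counts per mature miRNA, with changed reads listed separately. Libraries were grouped by GEO's labels. Per the methods the 3 libraries of a group are biological replicates, each a pool of hippocampi. Same-numbered KA and control libraries deviated together at 2 weeks (correlations 0.11 to 0.31, 6 of 6 over 0.1). At 24 h they mostly did not (-0.25 to 0.11, 1 of 6). The 2 week comparisons were therefore also fitted with a replicate block. Entries marked as doubled (248 member reads) were left out. Positions of changes were set from the reference letters.

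Counts were scaled by TMM and tested with edgeR 4.0.16 (quasi-likelihood, Benjamini-Hochberg adjustment, R 4.3.3) on miRNAs over 1 CPM in at least 6 libraries. KA and time were tested per method, and method over all libraries. For the latter a miRNA had to meet the filter in the libraries of each method. Shares, log2 ratios (0.5 added) and read ends (members with at least 50 reads in every library) were tested by exact permutation (numpy 2.4.6), adjusted over 200 tests. Exact binomial intervals were from scipy 1.17.1. All 7 members are named, with the 3 miRNAs closest in pattern to miR-181a-5p and miR-181c-5p. Alternatives were DESeq2 1.42.0, limma-voom (limma 3.58.1), other filters and scalings, a replicate block and leaving out libraries. The fits were checked on simulated data. Members and lists were chosen with earlier results of these data known. Depth limits the 3p members most.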

Additional observations from a re-analysis of the deposited data

How the results depend on the processing

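No member passed an adjusted p for KA or time under any of 848 alternative values of 56 fold changes. The lowest adjusted p was 0.113 (edgeR, DESeq2 or limma-voom), and 83 of these values changed sign. Between kit and UC, all but 8 alternative values of the 7 fold changes (2 lost and 6 gained) kept their side of the threshold, and miR-181b-5p (log2 -0.69 to -0.53) and miR-181a-1-3p (-1.10 to -0.94) passed in all. With at least 10 counts in at least 6 libraries 5 members passed in place of 3, the others being miR-181a-5p (log2 -0.23, adjusted p = 0.0365) and miR-181c-3p (log2 -0.42, adjusted p = 0.036, edgeR); with no filter 2 passed, and leaving out 1 library gave 2 to 4. Without 1 replicate number the difference of kit from UC was 1.45 to 2.00 points for the 5p share of miR-181a-5p, -2.59 to -2.06 for miR-181b-5p, -13.3 to -8.61 for the 3p share of miR-181a-1-3p and 1.85 to 3.31 for miR-181a-2-3p. The log2 arm ratio of miR-181a then differed by -0.82 to -0.66 and that of miR-181a-1-3p to miR-181a-2-3p by -1.70 to -1.37. Those smaller designs (1296 arrangements, smallest exact permutation p 0.00154) gave no adjusted p under the threshold.

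Same-numbered libraries deviated together at 2 weeks (6 of 6 correlations over 0.1) and mostly not at 24 h (1 of 6). In 80 exact sign-flip tests of KA on shares, ratios and read ends over same-numbered pairs, none passed adjustment. Their lowest p was 0.03125, the smallest this test can give, and their lowest adjusted p 0.556 (exact sign flips). With a replicate block over all libraries of a method no member passed in the 8 KA and time comparisons (lowest adjusted p 0.373, log2 changes -0.68 to 1.44, edgeR), and none did with the block on the 6 libraries of a 2 week comparison (lowest adjusted p 0.551), a fit added after the data were seen.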
